A study of Mus musculus with 49 samples.

Results

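Bone marrow cells that had taken up or bound an injected iron oxide nanoparticle were compared with the nanoparticle-associated cells of the tumor, the liver and the spleen of the same mice. The libraries were chosen by their labels alone: 3 of nanoparticle-associated (NA) marrow cells and 9 of NA cells from the other organs, 3 per organ, which together make 12 of the 49 libraries of the series. The NA library of lymph node was not used. All 12 came from 3 HuHER2 transgenic mice that carried palpable mammary tumors, had been palpated from an age of 7 months, and had received BP, the labels' name for the nanoparticle, as a single intravenous injection of 5 mg Fe per mouse. The design text gives collection 7 days after treatment, while a protocol in the labels names 31 days. According to the design text, each organ was cut into equal sections, with 1 section kept as whole tissue (bulk) and the other digested to single cells and passed over a magnet. Marrow and the other organs therefore share the transgene and the treatment, and each was digested and passed over a magnet, though digestion times are not given in the sources used here. No NA cells of mice injected with PBS were analysed here. The promoter that drives the transgene and the purity of the magnetic fraction are not given in the sources used here, so an NA library stands for all cells that the magnet held. The organs of 1 mouse are not independent samples, and the mouse number entered the model as a block. In such mixed libraries, fewer cells of a type and less RNA per cell cannot be told apart.

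Bone marrow is where blood cells are made. Neutrophils fill their granules in sequence as they mature: promyelocytes make the proteins of the primary granules, such as myeloperoxidase and elastase, myelocytes make those of the secondary granules, such as lactoferrin, and later cells make gelatinase and other proteins of the tertiary granules. Resident macrophages of the liver and the spleen clear particles from the blood through scavenger receptors, and those of marrow and spleen also recycle the iron of worn red cells.

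The 3 marrow libraries held 10410280 to 12826767 counts, and the 12 libraries 10410280 to 19221343, with 17721 to 21213 genes detected in each. The labels were compared with defining genes. Ptprc, the pan-leukocyte gene, stood at 309 to 587 CPM (counts scaled to 1000000 per library) of the library total in marrow, 585 to 800 in spleen, 75.5 to 101.8 in liver and 13.02 to 15.7 in tumor, so the NA cells of tumor gave libraries with little leukocyte RNA. Krt8, a keratin of luminal epithelium, stood at 2557 to 3229 CPM in tumor and at 1.89 to 2.58 CPM in marrow after TMM scaling. Transcripts of the mitochondrial genome took 48.2% to 57.2% of the liver counts, against 1.80% to 2.40% in marrow, 2.99% to 3.32% in spleen and 3.98% to 4.41% in tumor. Sftpc, the surfactant gene of lung epithelium, was at 32.7 CPM of the total in the marrow library of mouse 1 and at 0.0901 and 0 in those of mice 2 and 3. On the same scale it was at 64.3 CPM in the spleen library of mouse 1 and at no more than 0.0881 in the other spleen libraries, at 83.6, 20.6 and 19.8 in tumor and at 116, 53.8 and 0.183 in liver. Its part in the results was not tested beyond repeating the comparisons without mouse 1, which was done after the data were seen. All CPM values that follow use library totals scaled by the TMM method, unless another scale is named.

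Marrow was the most uniform of the 4 groups. Among genes with a mean of at least 10 CPM, the highest of the 3 marrow libraries exceeded the lowest by more than 2 times for 246 of 8223 genes (2.99%), against 14.4% of such genes in spleen, 8.48% in liver and 13.9% in tumor. On the first principal component, which held 52% of the variance of the 500 most variable genes, marrow lay at -73.2, -61.6 and -59.7. The spleen libraries were nearest, at -50.4, -42.7 and -39.9, with liver between 44.1 and 44.5 and tumor between 55.6 and 72.4. Along both components the marrow, spleen and tumor libraries of mouse 1 stood apart from those of mice 2 and 3. On the second component the tumor library of mouse 1 lay at 83.5 and those of mice 2 and 3 at 48.5 and 50.9.

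**Figure D1:**
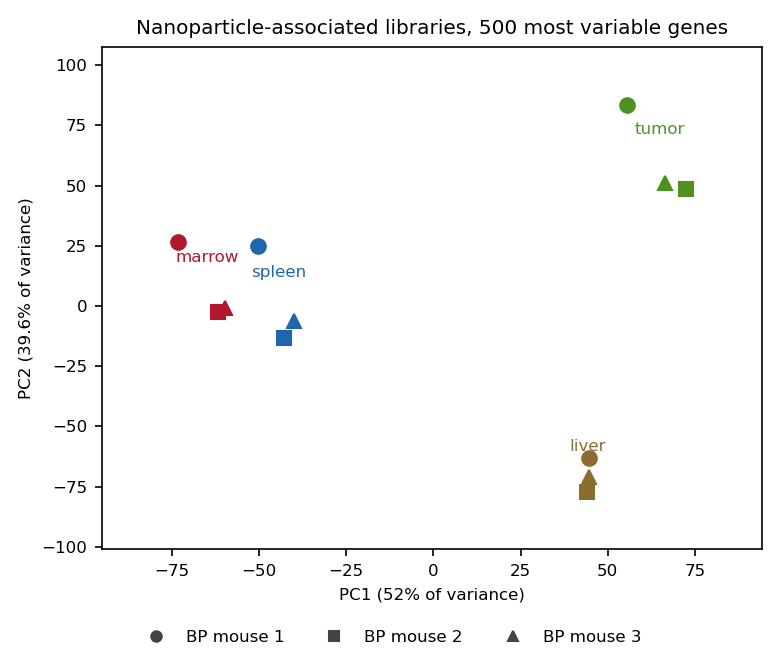
Principal components 1 and 2 of the 12 NA libraries (log2 CPM of the 500 most variable genes), with color for the organ and symbol for the mouse. The axes hold 52% and 39.6% of the variance. Marrow and spleen share the left side, while liver and tumor lie on the right, at opposite ends of the second axis.

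Of 15899 genes tested, 9213 (57.9%) differed between marrow and the mean of the other 3 organs by edgeR's quasi-likelihood test at an adjusted p under 0.05, with 4472 (28.1%) higher in marrow and 4741 (29.8%) lower. Since organs differ in most genes, a stricter rule was set beside this: a gene was called marrow-distinct when it also passed in the same direction against each of the 3 organs. That left 1130 genes (7.11%) higher and 1096 (6.89%) lower. Against spleen alone 5454 genes (34.3%) differed, against liver 9753 (61.3%) and against tumor 10154 (63.9%), so spleen set most of the limit. In 1614 genes (10.2%) all 3 marrow libraries stood above all 9 others, and in 1352 (8.5%) below; 1071 (6.74%) and 974 (6.13%) were both marrow-distinct and free of overlap. Without mouse 1 the marrow-distinct genes numbered 547 higher and 665 lower, of which 525 and 592 were among those called with it. The median log2 fold change of all genes was -0.05.

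Genes of neutrophil granules were high in marrow. The primary granule list had 8 of 9 members higher than in the other organs (28.1% of all genes), 7 of them marrow-distinct (7.11% of all genes), and a median log2 fold change of 6.17. Mpo (chr11:87793581-87804413, GRCm38), which encodes the myeloperoxidase that makes hypochlorous acid, stood at 2118, 2103 and 2158 CPM in the marrow of mice 1, 2 and 3. In spleen it stood at 185, 94.3 and 101.6 CPM, in liver at 13.5, 41.9 and 9.40, and in tumor at 1.47, 0.757 and 2.20. The lowest marrow library was more than 10 times the highest of the other 9, and the log2 fold change was 7.06 ± 0.40 (SE; adjusted p = 3.89e-07), or 4.07 against spleen alone. Elane (chr10:79886247-79888215), neutrophil elastase, stood at 593, 753 and 750 CPM in marrow, at 32.8 to 68.3 in spleen, at 2.69 to 12.7 in liver and at 0.229 to 0.505 in tumor, with no overlap and a log2 fold change of 7.28 ± 0.34 (SE; adjusted p = 1.28e-07). Prtn3 and Ctsg, the other serine proteases of these granules, and Ms4a3, a membrane protein of granulocyte and monocyte progenitors, were marrow-distinct as well, at log2 fold changes of 6.17, 6.74 and 6.78. Calr, a calcium-binding chaperone of the endoplasmic reticulum that is made in most cells, was the member that did not pass (-0.20, adjusted p = 0.321).

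Mpo, Elane and Prtn3 are shown with a stretch of their RefSeq promoters (GRCm38.p6) that lies outside annotated exons, because these 3 genes of the list hold the letters GAGGAAGT, a purine-rich string that contains the GGAA core of ETS factor sites. The string was searched on both strands in the 250 bases before the start, and capitals mark the match. Sequences read 5′ to 3′.
Mpo: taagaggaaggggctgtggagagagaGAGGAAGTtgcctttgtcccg
Elane: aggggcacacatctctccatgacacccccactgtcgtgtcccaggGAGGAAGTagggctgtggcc
Prtn3: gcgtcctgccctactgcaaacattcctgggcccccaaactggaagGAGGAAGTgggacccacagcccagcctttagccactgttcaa
The windows are chr11:87793534-87793580, chr10:79886182-79886246 and chr10:79879527-79879613, all on the plus strand, and the last lies in an intron of a longer Prtn3 model. The string occurred in 3 of the 8 primary granule genes with a promoter and in 2.44% of 32851 promoters. It was chosen after 11 strings had been counted and is a description of these letters, not of binding. Spi1, which encodes the ETS factor PU.1, was itself marrow-distinct and is named after its values were seen, at 227, 196 and 238 CPM in marrow against 94.5 to 171 in spleen, 46.1 to 70.2 in liver and 4.76 to 6.07 in tumor, with no overlap and a log2 fold change of 2.64 ± 0.15 (SE; adjusted p = 5.02e-07).

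Secondary and tertiary granule genes were also far higher in marrow. Of the 9 secondary granule genes 8 were higher and 7 marrow-distinct, with a median of 6.19, and of 18 tested members of the tertiary granule and mature neutrophil list (19 listed; Stfa1 failed the filter on low counts) 17 were higher and 14 marrow-distinct, with a median of 5.196. Ngp, neutrophilic granule protein, stood at 6687, 5905 and 6508 CPM in marrow, at 952, 614 and 479 in spleen, at 21.5 to 61.2 in liver and at 3.14 to 8.06 in tumor, a log2 fold change of 7.01 ± 0.36 (SE; adjusted p = 2.51e-07). Camp, which encodes the antimicrobial peptide cathelicidin, stood at 1826, 1681 and 1861 CPM in marrow and at 243, 148 and 118 in spleen, and differed by 7.05. Ltf, the iron-binding lactoferrin, and Chil3, a chitinase-like lectin, differed by 5.73 and 6.44. In each of these genes the marrow libraries lay above all 9 others.

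Mmp8, neutrophil collagenase, stood at 401, 285 and 294 CPM in marrow, 19.6, 16.7 and 15.4 in spleen, 2.79 to 6.28 in liver and 0.270 to 0.779 in tumor, a log2 fold change of 6.61 ± 0.24 (SE; adjusted p = 5.13e-08). S100a8 and S100a9, the calprotectin subunits of mature neutrophils and monocytes, were at 4244 ± 138 and 7250 ± 392 CPM (SD, n = 3) in marrow and at 476 ± 179 and 836 ± 284 in spleen. Retnlg, a resistin-like protein, and Mmp9, gelatinase B, differed by 6.73 and 6.42, and Ly6g, the surface marker of mouse neutrophils, by 7.08. Against spleen alone 8 of 9 primary, 9 of 9 secondary and 15 of 18 tertiary genes were higher (15.1% of all genes), with medians of 3.76, 3.44 and 3.10.

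Lcn2, the siderophore-binding lipocalin of secondary granules, was an exception among them. It stood at 1420 to 1607 CPM in marrow and at 5465 to 6548 CPM in tumor, so that marrow was lower than tumor by 2.002 on the log2 scale (adjusted p = 0.000158) while it was higher than spleen by 3.27. The summed secondary granule level, which includes this gene, was 0.796% to 0.892% of counts in tumor and 1.91% to 2.30% in marrow.

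**Figure D2:**
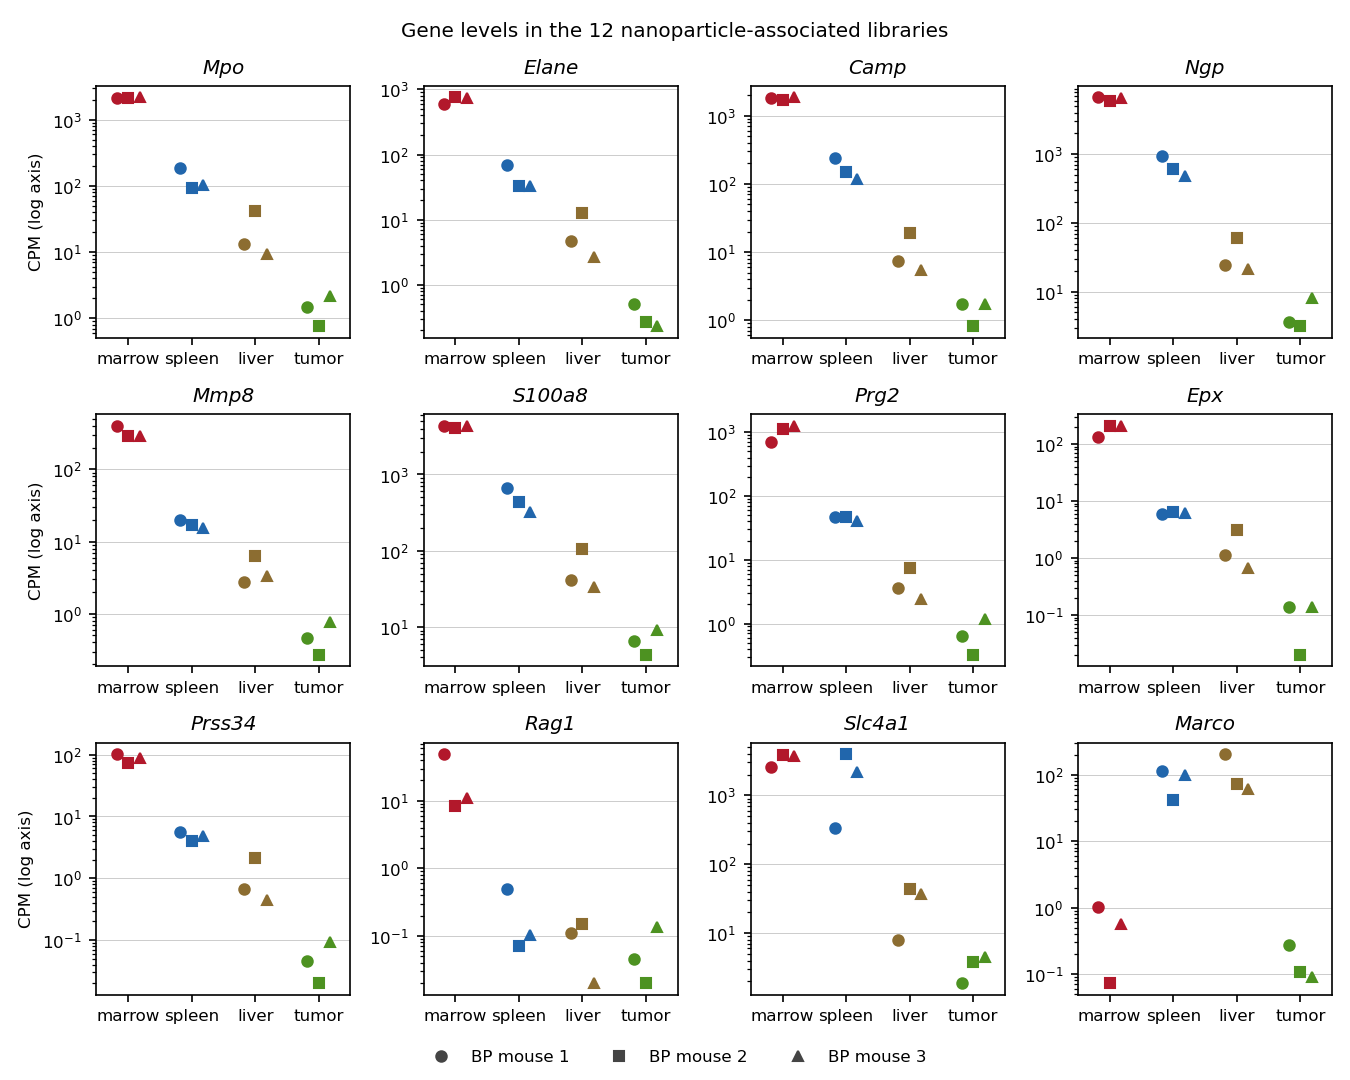
CPM (log axis) of 12 genes in each NA library by organ, with 1 symbol per BP mouse; values below 0.02 CPM are drawn at 0.02. For the granule genes Mpo, Elane, Camp, Ngp, Mmp8 and S100a8 the 3 marrow points lie above all others and the levels step down from spleen to liver to tumor, whereas Slc4a1 overlaps with spleen and Marco is high in spleen and liver.

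Transcription factors of granulocyte development moved in both directions. Of 16 listed, 9 were higher (28.1% of all genes) and 4 lower (29.8% of all genes) than the mean of the other organs, and without the liver libraries 1 was lower; 4 were marrow-distinct: Cebpe, Gfi1, Myb and Spi1. Cebpe, required for secondary granule genes, stood at 103.2, 91.1 and 118 CPM in marrow, at 4.07 to 9.07 in spleen, at 0.672 to 0.898 in liver and at 0.0459 to 0.183 in tumor, a log2 fold change of 6.97 ± 0.22 (SE; adjusted p = 4.74e-08) without overlap. Gfi1, a repressor needed for neutrophil differentiation, stood at 50.4, 51.3 and 50.5 CPM in marrow and at 11.9 to 18.4 in spleen, and differed by 4.79. Myb, a factor of progenitors, stood at 152, 105.2 and 95.1 CPM in marrow and at 25.9 to 28.5 in spleen. Cebpb, a factor of mature and activated myeloid cells that epithelium also expresses, was lower by 0.65 (adjusted p = 0.0124), with 104.2 to 170 CPM in marrow and 479 to 499 in tumor. It did not pass against spleen or liver, and the call ended without mouse 1 or without the marrow library of mouse 1 or 2 alone.

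Eosinophil genes were higher in marrow too. All 9 listed genes were higher (28.1% of all genes) and 7 were marrow-distinct (7.11% of all genes). The median log2 fold change was 6.38, or 4.48 against spleen. Prg2 (chr2:84980461-84983632), the major basic protein of eosinophil granules, stood at 707, 1139 and 1257 CPM in marrow, at 46.9, 47.5 and 41.2 in spleen, at 2.46 to 7.48 in liver and at 0.324 to 1.19 in tumor. It ranked first among the 10 upward marrow-distinct genes chosen for naming, with a log2 fold change of 7.56 ± 0.29 (SE; adjusted p = 5.13e-08). Epx, eosinophil peroxidase, followed at 131, 203 and 208 CPM in marrow and at 5.97 to 6.53 in spleen. Siglecf, a surface marker of eosinophils, stood at 8.84 to 11.6 CPM in marrow and at no more than 1.58 elsewhere. The ribonuclease genes Ear1, Ear2 and Ear6 differed by 6.01, 6.38 and 7.43, but are near-copies whose reads the counting may have shared among them. The marrow library of mouse 1 was the lowest of the 3 for Prg2, Epx and Ear2.

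Basophil genes were among those high in marrow. Of 11 tested members of the mast cell and basophil list 7 were higher than the mean of the other organs (28.1% of all genes). Lower than that mean were 3 (29.8% of all genes): Kit and, named after their values were seen, the mast cell protease genes Cma1 and Mcpt4. The marrow-distinct members numbered 6 (7.11% of all genes): Prss34, Mcpt8, Ms4a2, Fcer1a, Cpa3 and Hdc. Prss34, a basophil serine protease, stood at 101.8, 72.7 and 89.2 CPM in marrow, at 4.07 to 5.57 in spleen, at 0.448 to 2.09 in liver and at 0 to 0.0916 in tumor, a log2 fold change of 7.03 ± 0.28 (SE; adjusted p = 6.16e-08). Mcpt8, the basophil marker protease, stood at 46.9, 30.4 and 36.5 CPM in marrow and at 1.40 to 3.45 in spleen. Ms4a2, a subunit of the IgE receptor, had no count in any tumor library, and marrow was at least 38.2-fold higher than the 3-count floor there. Kit, the stem cell factor receptor that mast cells, progenitors and some epithelia express, was lower than the mean of the other organs by 0.85: it stood at 56.2 to 57.5 CPM in marrow, at 34.7 to 44.7 in spleen, at 71.2 to 136 in liver and at 247 to 298 in tumor, without which the call ended.

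Of the monocyte list 11 of 15 genes were higher (28.1% of all genes) and 2 lower (29.8% of all genes), with a median of 2.01. The marrow-distinct members numbered 6 upward (7.11% of all genes) and 2 downward (6.89% of all genes). Against liver 7 were higher and 4 lower, with a median of 0.14, while the medians against spleen and tumor were 1.59 and 4.79. Ly6c2, the surface antigen of inflammatory monocytes and their marrow precursors, stood at 449, 435 and 449 CPM in marrow, at 107, 58.0 and 51.3 in spleen, at 13.4 to 34.0 in liver and at 0.487 to 0.643 in tumor, a log2 fold change of 5.59 ± 0.27 (SE; adjusted p = 1.41e-07) without overlap. F13a1, the coagulation factor XIII subunit of monocytes, stood at 210, 160 and 111 CPM in marrow and at no more than 19.6 in any other library. Nr4a1, a nuclear receptor of patrolling monocytes and an immediate early gene, was marrow-distinct downward, at 176 to 245 CPM in marrow against 310 to 975 elsewhere.

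Genes of mature tissue macrophages, the cells known best for particle uptake, did not follow the granulocyte genes. Of 18 macrophage genes 2 were higher than the mean of the other organs (28.1% of all genes) and 8 lower (29.8% of all genes). The median was -0.35. Against liver 15 were lower (31.5% of all genes) and against tumor 8 were higher (31.6% of all genes). Without the liver libraries 6 were higher and 3 lower than the mean of spleen and tumor. Marco, a scavenger receptor that binds particles and bacteria, stood at 1.01, 0.0728 and 0.563 CPM in marrow, at 113, 41.5 and 98.0 in spleen and at 204, 72.1 and 60.5 in liver, and at 0.0916 to 0.276 in tumor. Marrow and tumor were low and spleen and liver high, with no overlap between them, and marrow was lower than spleen by 7.33 (adjusted p = 7.40e-06) and than liver by 7.67 (adjusted p = 4.17e-07) on the log2 scale. Lyz2, the lysozyme of neutrophils, monocytes and macrophages, was the 1 member that was marrow-distinct upward, at 4550, 3761 and 3779 CPM in marrow, 646 to 1248 in spleen, 474 to 976 in liver and 87.0 to 114 in tumor. Apoe, the lipoprotein of macrophages and hepatocytes, was marrow-distinct downward, at 133 to 200 CPM against 282 to 554 in spleen, 12500 to 25750 in liver and 467 to 537 in tumor.

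Csf1r, the receptor for macrophage colony-stimulating factor, stood at 73.6 to 100 CPM in marrow, 104.6 to 264 in spleen, 158 to 384 in liver and 23.0 to 27.8 in tumor; it was lower than in spleen by 1.03 and in liver by 1.45 and higher than in tumor by 1.69. C1qa, a complement subunit made by tissue macrophages, stood at 21.3 to 27.3 CPM in marrow and at 117 to 300 in liver. Of 18 genes of resident macrophages of liver, spleen and marrow 3 were higher (28.1% of all genes) and 6 lower, near the 29.8% of all genes, and none was marrow-distinct; without the liver libraries 6 were higher and 1 lower, and without the tumor libraries 12 were lower. Hmox1, the heme oxygenase of iron-recycling macrophages, stood at 98.6, 77.5 and 98.8 CPM in marrow, below all spleen and liver libraries, of which the highest was at 374, and overlapped with tumor at 56.2 to 84.6. Itgad, an integrin of red pulp macrophages, stood at 7.64 to 11.9 CPM in marrow against 13.2 to 30.7 in spleen, and Folr2, a folate receptor of resident macrophages, at no more than 0.358 CPM in marrow. Hepatocyte genes summed to 1.69% to 3.25% of the liver counts and to 0.0184% to 0.0584% of the marrow counts beside these differences, and their part was not tested. With the genes of the mitochondrial genome left out before scaling, 9197 genes differed in the main comparison against 9213 with them, and 9852 against 9753 differed from liver.

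Of 21 scavenger and Fc receptor genes tested, 7 were higher and 9 lower than the mean of the other organs, shares near those of all genes (28.1% and 29.8%), or 13 and 3 without the liver libraries, and 5 were marrow-distinct upward: Itgam and Itgb2, the chains of complement receptor 3, Fcer1g and Fcgr3, signal chain and low-affinity receptor for IgG, and Olr1, a receptor for oxidized lipoprotein. Itgam stood at 583, 457 and 385 CPM in marrow, at 83.7, 65.2 and 45.8 in spleen, at 18.4 to 47.0 in liver and at 3.46 to 5.82 in tumor, a log2 fold change of 4.46 ± 0.22 (SE; adjusted p = 2.06e-07). Stab1, a scavenger receptor of sinusoidal endothelium and macrophages, stood at 9.07 to 11.4 CPM in marrow and at 1162 to 1773 in liver. Of 28 lysosome genes 5 were higher (28.1% of all genes) and 13 lower (29.8% of all genes), with none marrow-distinct upward and 2 downward (Atp6v1h, a proton pump subunit, and Gla, an alpha-galactosidase, named after their values were seen). The 13 became 8 without the marrow library of mouse 1 and 7 without the liver libraries, and the 5 became 3 without any 1 of 6 libraries (marrow of mice 2 and 3, spleen of mouse 2, liver of mouse 3, tumor of mice 1 and 2) and 1 without the tumor libraries. Lamp1, a membrane protein of lysosomes, stood at 249 to 258 CPM in marrow, 183 to 234 in spleen, 573 to 689 in liver and 195 to 249 in tumor. The cathepsin genes Ctsb and Ctsd did not pass against the mean of the other organs (-0.51 and -0.24) and were lower than in liver by 1.40 and 1.15. Without TMM scaling, the summed lysosome list took 0.544% to 0.580% of library counts in marrow and 0.321% to 0.638% in liver, with overlap.

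**Figure D3:**
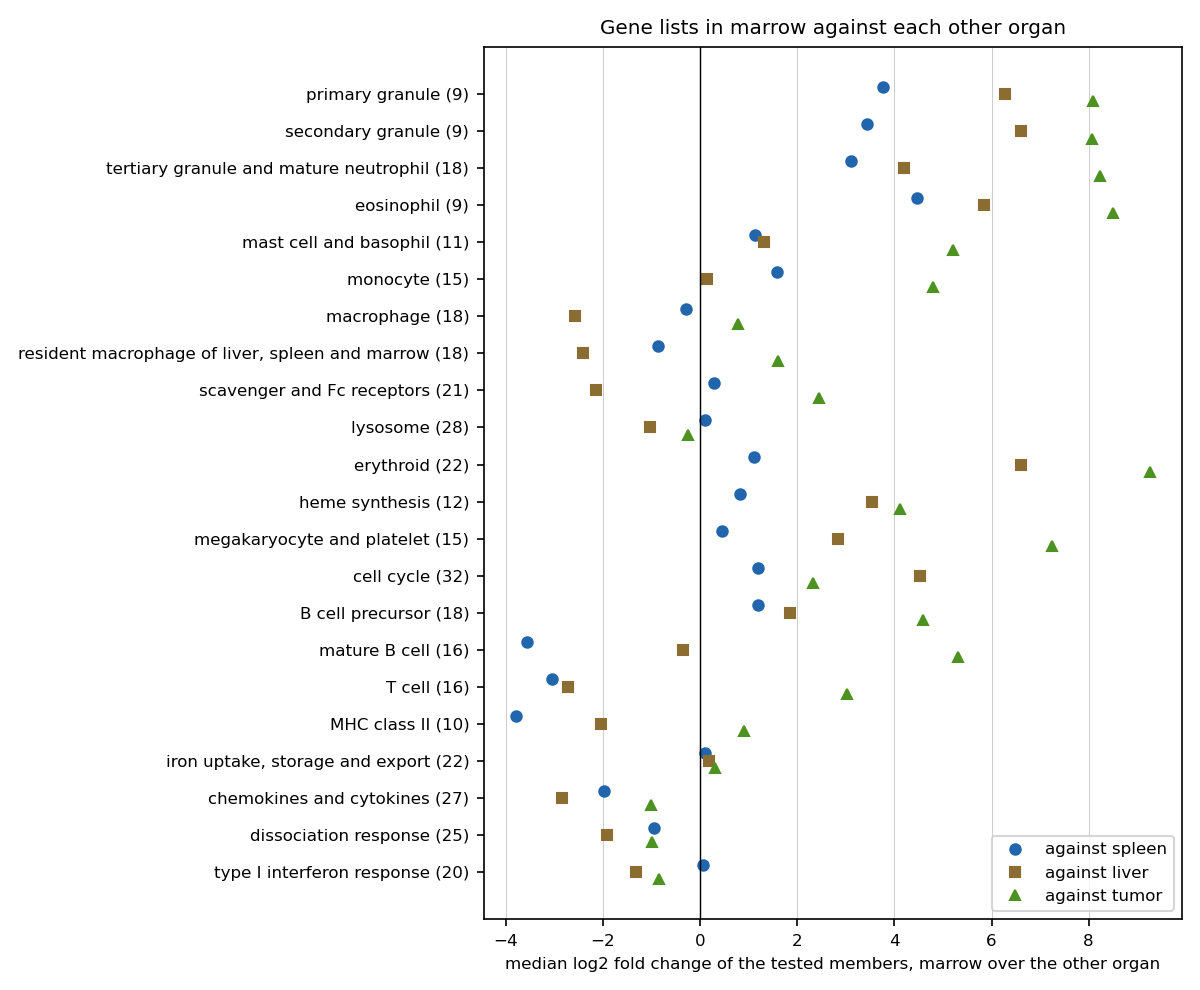
Median log2 fold change of the tested members of 22 gene lists in marrow NA cells against those of spleen, liver and tumor, with the number tested in brackets. Granule, eosinophil and erythroid lists lie to the right of 0 against all 3 organs; macrophage lists lie left of 0 against liver and right of 0 against tumor; chemokines and the dissociation response lie left of 0 against all 3.

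The injected particle contains iron, and genes of iron handling were examined as a list of 22 tested. Of these 11 were higher (28.1% of all genes) and 5 lower (29.8% of all genes), with a median of 0.24; without the tumor libraries 7 were higher and without the liver libraries 3 were lower. The 2 marrow-distinct members, Ltf and Ncoa4, are a share near that of all genes (7.11%). Fth1, the ferritin heavy chain, stood at 1062, 1451 and 1653 CPM in marrow, 2015 to 2278 in spleen, 1103 to 1519 in liver and 280 to 1243 in tumor, and did not pass against any organ (log2 fold change 0.12 ± 0.32, SE; adjusted p = 0.78). Tfrc, the transferrin receptor through which dividing and erythroid cells take up iron, stood at 622, 828 and 713 CPM in marrow and at 170, 815 and 496 in spleen, with overlap, and at 25.0 to 100 in liver and tumor. Ncoa4, which delivers ferritin for breakdown, stood at 364, 410 and 357 CPM in marrow and at 151 to 321 in spleen, above it by 0.73 (adjusted p = 0.0472), and is named after its values were seen. Without mouse 1 the list had 1 marrow-distinct gene upward and 1 downward.

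Red cell genes were abundant in marrow and in 2 of the 3 spleen libraries. All 22 tested erythroid genes were higher than the mean of the other organs, with a median of 5.73, and 3 of 22 (Car1, Ermap and Trim10) passed against spleen (15.1% of all genes), where the median was 1.12. The summed erythroid level took 9.56%, 12.3% and 13.95% of the marrow counts of mice 1, 2 and 3, and 1.785%, 10.1% and 6.84% of the spleen counts, so the spleen library of mouse 1 was low. Slc4a1, the anion exchanger of the red cell membrane, stood at 2589, 3889 and 3717 CPM in marrow and at 337, 3948 and 2205 in spleen, which overlapped, and differed from spleen by 1.18 (adjusted p = 0.0789). Hba-a1, an alpha globin chain with a near-identical copy, stood at 37920, 50510 and 59120 CPM in marrow and at 6034, 37290 and 24290 in spleen. Alas2, which starts heme synthesis in erythroid cells, stood at 1200 to 1754 CPM in marrow and 183 to 1261 in spleen, whereas Alas1, the form of other cells, was marrow-distinct at 140, 128 and 128 CPM against 32.0 to 60.2 in spleen. The count of erythroid genes above spleen depended on single libraries: it was 15 without the spleen library of mouse 2, 8 without the marrow library of mouse 2 and 0 without mouse 1, and 13 with no filter on low counts and 10 by DESeq2.

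Megakaryocyte and platelet genes were higher than the mean of the other organs in 14 of 15 and differed from spleen in none. Ppbp, a platelet chemokine, stood at 77.2, 269 and 251 CPM in marrow and at 186, 107 and 142 in spleen. The marrow library of mouse 1 was the lowest marrow library for Ppbp, Itga2b, Treml1 and Tubb1, and without mouse 1 the platelet genes above spleen numbered 7 and the marrow-distinct ones 6.

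Genes of cell division were higher in marrow in all 32 listed (28.1% of all genes), with a median of 2.74. The marrow-distinct ones numbered 17 (7.11% of all genes). Top2a, the topoisomerase of dividing cells, stood at 476, 519 and 445 CPM in marrow, at 64.0, 301 and 192 in spleen, at 15.7 to 29.0 in liver and at 58.9 to 120 in tumor, a log2 fold change of 2.84 ± 0.31 (SE; adjusted p = 2.46e-05) without overlap. Mki67, the proliferation antigen, stood at 1554, 1786 and 1435 CPM in marrow and at 228, 1855 and 1026 in spleen, so that 1 spleen library was above marrow. The summed list took 0.866% to 1.02% of marrow counts and 0.197%, 0.831% and 0.559% of spleen counts. The order of the spleen libraries was that of their erythroid sums, and the part of erythroid cells in it was not tested. The 17 genes above spleen became 30 without the spleen library of mouse 2 and 4 without the marrow library of mouse 1. They were 6 to 9 when another spleen or marrow library, mouse 1 or the block for mouse was left out.

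**Figure D4:**
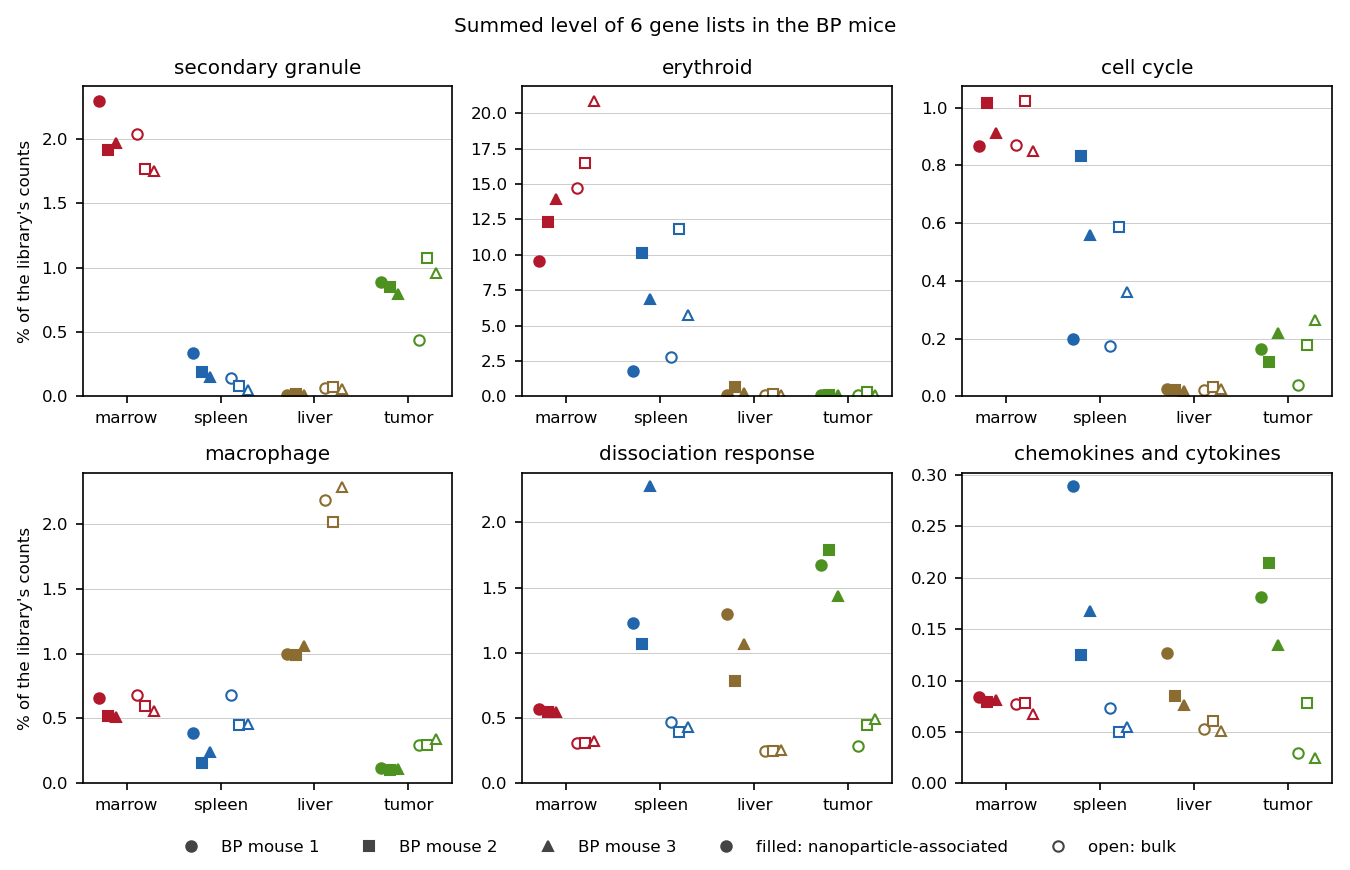
Summed level of 6 gene lists as a percentage of library counts in the BP mice, with filled symbols for NA cells and open symbols for bulk tissue of the same organ. Secondary granule, erythroid and cell cycle sums are high in NA and bulk marrow alike, while the dissociation sum is higher in NA cells than in bulk in every organ and lowest in marrow among the NA groups.

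Lymphocyte genes differed by stage. Of 18 B cell precursor genes 13 were higher (28.1% of all genes) and 2 lower (29.8% of all genes). The marrow-distinct ones numbered 7, all upward (7.11% of all genes). Rag1, a recombinase that joins immunoglobulin segments, stood at 48.9, 8.37 and 11.02 CPM in marrow and at 0 to 0.493 CPM in all other libraries, so the marrow library of mouse 1 was high and no library overlapped. Its log2 fold change was 7.49 ± 0.39 (SE; adjusted p = 2.68e-07). Dntt, which adds bases at those joints, stood at 24.1, 13.3 and 14.2 CPM in marrow and at no more than 3.44 elsewhere. Vpreb1, part of the surrogate light chain, stood at 13.6, 5.82 and 11.02 CPM in marrow and at no more than 0.449 elsewhere.

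Of 16 mature B cell genes, by contrast, none was marrow-distinct and 15 were lower than in spleen (19.2% of all genes), with a median of -3.57. All 16 were higher than in tumor, and against the mean of the other organs 6 were higher and 1 lower, or 15 higher without the spleen libraries and 12 lower without those of tumor. Ighm, the constant region of IgM that immature and mature B cells express, stood at 3477 to 4380 CPM in marrow and 2813 to 5447 in spleen. The genes of antigen presentation by MHC class II were all lower than in spleen and in liver (10 of 10 in each): Cd74, the invariant chain, stood at 329, 248 and 300 CPM in marrow, 3959 to 4940 in spleen, 1108 to 1865 in liver and 192 to 266 in tumor. T cell genes were lower than in spleen in 15 of 16 and than in liver in 14, and higher than in tumor in 12 (31.6% of all genes). As a share of library counts without TMM scaling, the summed T cell list overlapped between marrow (0.00861% to 0.00989%) and liver (0.00855% to 0.0140%). Trac, the constant region of the T cell receptor alpha chain, stood at 0.364 to 0.724 CPM in marrow and 7.84 to 11.1 in spleen. Of 18 genes of the NADPH oxidase and oxidative defense 11 were higher (28.1% of all genes) and 3 lower (29.8% of all genes). The marrow-distinct ones numbered 5 upward (7.11% of all genes) and 2 downward (6.89% of all genes). The latter were the antioxidant enzyme genes Prdx1 and, named after its values were seen, Sod2. In the NADPH oxidase of phagocytes Cybb, Ncf1 and Ncf4, its membrane and cytosolic subunits, were marrow-distinct at 621 ± 147, 480 ± 85.1 and 243 ± 25.2 CPM (SD, n = 3) in marrow, against 216 ± 58.8, 165 ± 48.6 and 76.4 ± 18.8 in spleen.

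Most genes of inflammatory mediators were low in marrow. As a share of library counts without TMM scaling, the summed chemokine and cytokine list overlapped between marrow (0.0790% to 0.0841%) and liver (0.07625% to 0.127%). It was higher in spleen (0.125% to 0.289%) and tumor (0.135% to 0.215%). Of 27 tested chemokine and cytokine genes (Ccl12 failed the filter) 20 were lower than the mean of the other organs (29.8% of all genes), 11 were marrow-distinct downward (6.89% of all genes) and 3 were higher, with a median of -1.90. Cxcl1 (chr5:90891241-90893115), a neutrophil chemoattractant, stood at 1.91, 1.38 and 2.58 CPM in marrow. It stood at 134, 51.5 and 93.0 CPM in spleen, at 181, 178 and 135 in liver and at 486, 574 and 346 in tumor. The highest marrow library was below the lowest other by more than 10 times, and the log2 fold change was -6.62 ± 0.40 (SE; adjusted p = 5.57e-07). Cxcl2, of the same family, stood at 17.6 to 29.2 CPM in marrow against 150 to 392 elsewhere, and Cxcl16, a membrane-bound chemokine, at 2.11 to 2.63 against 23.4 to 130.

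Tnf, tumor necrosis factor, stood at 19.3, 12.6 and 10.9 CPM in marrow and at 19.4 to 93.5 in the other libraries; it was lower by 1.90 ± 0.31 (SE; adjusted p = 0.000411). Il1a, interleukin 1 alpha, stood at 2.03, 5.17 and 4.02 CPM in marrow and at 7.08 to 265 elsewhere. Il1b, which neutrophils and monocytes make, did not pass (-0.28, adjusted p = 0.318): marrow was at 77.1 to 87.9 CPM, spleen at 112 to 257, liver at 102.5 to 211 and tumor at 30.8 to 41.4. Ccl6, a chemokine of myeloid cells, and Osm, oncostatin M, were marrow-distinct upward, with Ccl6 at 143 to 154 CPM in marrow and at 3.07 to 94.4 elsewhere. Without mouse 1, or without its marrow library alone, the genes marrow-distinct downward numbered 7.

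The immediate early and heat shock genes that cells are known to switch on during tissue dissociation were low in marrow as well. Of 25 listed, 18 were lower (29.8% of all genes) and none was higher than the mean of the other organs, with a median of -1.38. The marrow-distinct ones numbered 14, all downward (6.89% of all genes). Of the list 7 did not pass, and 3 were higher than in tumor. Hspa1b (chr17:34956436-34959238), an inducible heat shock protein 70, stood at 20.5, 18.2 and 17.9 CPM in marrow. It stood at 549, 575 and 4104 CPM in spleen, at 6338, 5232 and 7964 in liver and at 1611, 2183 and 952 in tumor. Marrow was uniform and below every other library, while the spleen library of mouse 3 was more than 7 times the other spleen libraries, and the log2 fold change was -7.00 ± 0.79 (SE; adjusted p = 3.14e-05). Hspa1a, its near-copy with which reads may be shared, differed by -7.08.

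Egr1 and Fosb, immediate early transcription factors, stood at 52.1 to 60.2 and 96.4 to 127 CPM in marrow, against 178 to 1222 and 170 to 918 in the other libraries. Hsp90aa1, the inducible heat shock protein 90, stood at 590, 851 and 858 CPM in marrow and at 954 to 2213 elsewhere. The summed level of the list was 0.543% to 0.566% of counts in marrow, 1.07% to 2.28% in spleen, 0.782% to 1.298% in liver and 1.44% to 1.79% in tumor. Without the marrow library of mouse 3, or without mouse 1, the marrow-distinct members numbered 8. Most chemokine genes and most of this list were low in NA marrow together. Whether digestion time or handling differed between organs is not given in the sources used here, and their part was not tested.

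The promoters of Hspa1a, Hspa1b and Hspb1 are shown with the string GAANNTTC, an inverted pair of the units that heat shock factor sites are built of, in capitals. Each window lies in the 250 bases before the RefSeq start (GRCm38.p6) and outside annotated exons; sequences read 5′ to 3′.
Hspa1a: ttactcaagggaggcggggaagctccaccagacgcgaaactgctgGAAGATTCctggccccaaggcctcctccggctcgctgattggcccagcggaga
Hspa1b: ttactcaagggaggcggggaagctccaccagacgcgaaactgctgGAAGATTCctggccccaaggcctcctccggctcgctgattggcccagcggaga
Hspb1: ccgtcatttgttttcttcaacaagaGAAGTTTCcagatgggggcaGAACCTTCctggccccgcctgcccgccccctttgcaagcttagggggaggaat
They lie at chr17:34972208-34972305 and chr17:34959290-34959387 on the minus strand and at chr5:135887777-135887874 on the plus strand, and the windows of Hspa1a and Hspa1b are identical. The string reads the same on both strands, both of which were searched. It occurred in 4 of the 6 heat shock members of the list that have a promoter entry and in 6.69% of 32851 promoters. Those members were Hspa1a, Hspa1b, Hspd1 and Hspe1, so the identical windows counted separately, and Hspd1 did not pass in the main comparison. A longer string with a further such unit occurred in 2 of the 6, Hspd1 and Hspe1, and in 0.466% of promoters. Hspd1 and Hspe1 matched together or not at all for each of the 11 strings counted. Whether their windows overlap was not tested, so a shared region may be counted for both genes. Both strings were among the 11 counted, and the matches describe letters, not binding. Hspb1, which encodes a small heat shock protein and is no member of the list, was named as a marrow-distinct gene: it stood at 2.63, 1.89 and 1.13 CPM in marrow and at 13.1 to 825 elsewhere, with 347 to 825 in tumor.

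Other genes with the largest marrow-distinct differences downward belonged to several cell types. Adam23, a membrane protein of the disintegrin family, stood at 0 to 0.291 CPM in marrow, at 17.1 to 27.9 in spleen and at 354 to 424 in liver. Hbegf, a growth factor for the EGF receptor, stood at 1.85 to 2.09 CPM in marrow and at 18.5 to 331 elsewhere. Krt8 and Cldn4, of epithelium, were highest in tumor. Epithelial genes of the mammary tumor were lower in marrow in 16 of 17 tested and their sum was 0.00305% to 0.00536% of marrow counts, and the sum of 16 endothelial genes was 0.0262% to 0.0349% there against 0.303% to 0.666% in liver. Of 17 genes of marrow stroma and bone 4 were higher (28.1% of all genes) and 10 lower (29.8% of all genes), with a median of -1.19. The marrow-distinct ones numbered 2 upward (7.11% of all genes) and 4 downward (6.89% of all genes), the latter 1 to 4 leaving out 1 library. Ibsp, bone sialoprotein, was marrow-distinct upward at 1.55, 4.51 and 4.83 CPM, with no count in spleen or liver and at least 15.8-fold above the 3-count floor of spleen. Alb, albumin of hepatocytes, stood at 8.78, 157 and 128 CPM in marrow and at 13630 to 49030 in liver, so the marrow libraries of mice 2 and 3 held more of it than that of mouse 1.

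To see which of these differences were also present without the magnet, bulk tissue was used in 2 ways. In the PBS mice, other animals whose bulk marrow was compared with bulk tumor, liver and spleen, 9863 of 16314 genes (60.5%) differed. Of the genes marrow-distinct upward in NA cells and tested there, 1048 of 1118 (93.7%) were higher in bulk marrow as well, which are 21.8% of the 4817 genes higher there, and 1 was lower. Of those marrow-distinct downward, 895 of 1064 (84.1%) were lower, 17.7% of the 5046 genes lower there, and 9 were higher. Mpo differed by 8.57 in PBS bulk tissue, Prg2 by 8.70 and Rag1 by 9.91. Of the tested members of the 3 neutrophil granule lists, 32 of 36 were higher in PBS bulk marrow (29.5% of all genes) and 2 lower. Of 25 dissociation genes 11 were lower there (30.9% of all genes) and 6 higher, with a median of -0.65. Of 22 chemokine and cytokine genes tested there 6 were lower and 6 higher, with a median of 0.13.

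The second use was a test of the difference itself. In the 3 BP mice, the change from bulk to NA cells in marrow was compared with the mean change in the other organs, over 24 libraries; bulk tissue was not described as digested. Of 17281 genes 2745 (15.9%) differed, 1391 (8.05%) upward and 1354 (7.84%) downward. Without mouse 1 the count was 1233. No erythroid, eosinophil or cell cycle gene was called upward, none of 32 cell cycle genes was called at all, and 2 of 9 primary granule genes were called upward against 0 without mouse 1. Other granulocyte genes were called downward: 6 of 18 of the tertiary granule and mature neutrophil list with 1 upward, 2 of 9 secondary granule genes and 5 of 16 granulocyte transcription factors with 2 upward. Without mouse 1 these downward counts were 3, 0 and 3, and leaving out 1 library at a time that of the tertiary list ranged from 2 to 7. Of 18 B cell precursor genes 5 were called downward, or 0 to 5 leaving out 1 library. Mpo stood at 1513 to 1697 CPM in bulk marrow on the scale of this fit, and its change did not differ beyond the threshold (-1.47 ± 0.51, SE; adjusted p = 0.0607).

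Stress and inflammatory genes were among those called downward. Of 25 dissociation genes 14 were called downward, against 7.84% of all genes, and of 28 chemokine and cytokine genes 10. Hspa1b stood at 2.69, 2.04 and 4.01 CPM in bulk marrow and at 22.6, 19.6 and 19.4 in NA marrow on this scale. In liver it stood at 9.87 to 24.1 CPM in bulk and at 5601 to 8761 in NA cells. The marrow change was smaller than the mean of the others by 4.16 ± 0.69 on the log2 scale (SE; adjusted p = 0.00112). Tnf stood at 5.86 to 7.202 CPM in bulk marrow and 11.8 to 21.2 in NA marrow, against 0.230 to 0.486 in bulk liver and 73.9 to 100 in NA liver. Its change was smaller by 3.98 ± 0.37 (SE; adjusted p = 1.68e-05). Il1rn, the interleukin 1 receptor antagonist, stood at 31.1 to 36.9 CPM in bulk marrow and at 31.9 to 37.6 in NA marrow, against 3.56 to 6.56 CPM in bulk spleen and 105.9 to 219 in NA spleen. Without mouse 1, 12 dissociation genes and 8 chemokine and cytokine genes were called downward.

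**Figure D5:**
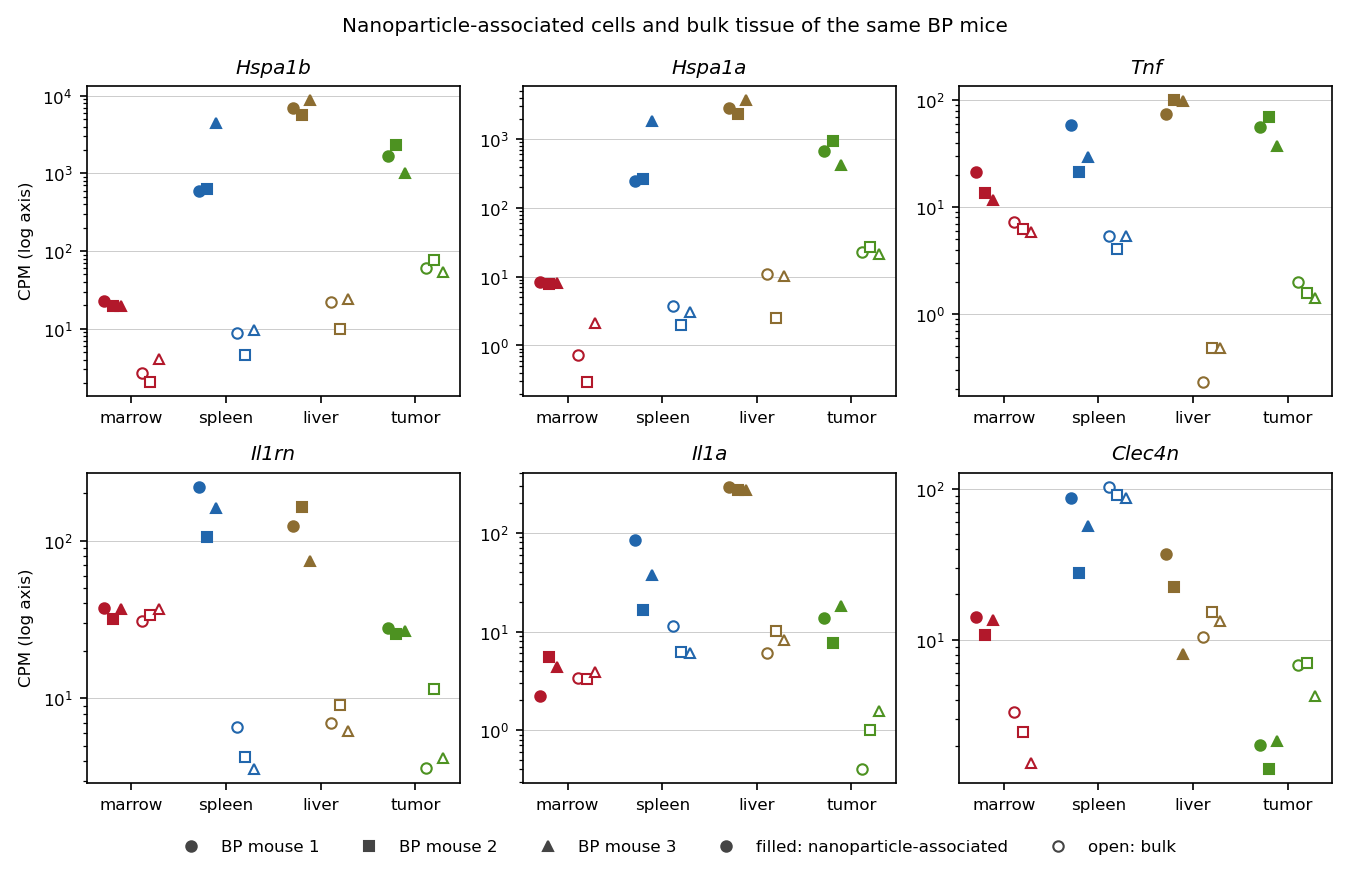
CPM (log axis) of 6 genes in NA cells (filled) and bulk tissue (open) of the same BP mice, by organ. For Hspa1b, Hspa1a, Tnf, Il1rn and Il1a the filled points lie above the open ones in spleen, liver and tumor. In marrow they lie above by less for Hspa1b, Hspa1a and Tnf and overlap for Il1rn and Il1a, while Clec4n is higher in NA than in bulk marrow and lower in tumor.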

How the data were processed

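RNA of NA cells and of whole tissue was sequenced from mice given BP or PBS, and 1 table of 55487 genes and 49 libraries was used, in which 12 NA libraries make the main comparison. The deposited values are expected counts per gene, per the submitters' processing notes, which name RSEM 1.3.1, the aligner STAR 2.7.9a, the trimmer cutadapt 3.5, FastQC 0.11.9 and the genome build mm10; the annotation release and strand setting are not given in the sources used here, so reads of overlapping, antisense or near-identical genes may be shared. The deposited expected counts were rounded to whole numbers (4.64% to 7.09% of values in the 12 libraries were not whole). Genes were filtered by edgeR's rule with a minimum count of 10, scaled by TMM and fitted with edgeR 4.0.16 (R 4.3.3) by the quasi-likelihood test with Benjamini-Hochberg adjustment over all tested genes, with a threshold of 0.05 and terms for organ and mouse. Every adjusted p in the text comes from these fits. The contrast set marrow against the mean of the 3 other organs, and each organ alone was contrasted in the same fit. A second fit of 24 NA and bulk libraries of the BP mice tested the interaction, and another compared bulk tissue of the PBS mice. Positions are from GENCODE M21 (55227 genes matched).

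The mouse numbers in the labels tie the libraries to animals. Deviations from the organ means correlated at a median of 0.121 between libraries of the same mouse (18 pairs, -0.005 to 0.488) and of -0.076 between different mice (36 pairs). A count of 3 in a library, the limit that a count of 0 allows, was 0.156 to 0.288 CPM, and it covers counting error only.

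The comparison, the 36 gene lists and the naming rule were chosen with earlier results of these data known. By that rule the text names the 10 marrow-distinct genes per direction with the largest log2 fold change (no overlap, mean log2 CPM of at least 3), up to 4 members of each list by level and 3 more by adjusted p, and 5 interaction genes per direction; members listed as marrow-distinct beyond these (Spi1, Fcer1a, Fcgr3, Olr1, Ncoa4, Ermap, Trim10 and Osm) were named after their values were seen. Alternatives were DESeq2 1.42.0, RLE scaling, no filter, mitochondrial genes left out, no block for mouse, the 9 other libraries as 1 group, each organ or library left out, and, added after the data were seen, mouse 1 left out.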

Additional observations from a re-analysis of the deposited data

Results flagged for a closer look

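The change from bulk tissue to NA cells differed between marrow and the mean of the other 3 organs, by the interaction test of edgeR's quasi-likelihood fit over 24 libraries, in each of the 10 genes that the naming rule took from that test. Values are differences of log2 changes, and all 10 calls held with the genes of the mitochondrial genome left out before scaling and without mouse 1. The part of depth in them was not tested.

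Of the genes higher by this test, Abcd2, a peroxisomal transporter of fatty acids, differed by 3.649 (adjusted p = 0.00189). Car3, a carbonic anhydrase of fat and liver, differed by 3.61 (adjusted p = 0.00723), Aldh1a7, an aldehyde dehydrogenase, by 3.102 (adjusted p = 0.0237) and Dgat2, an enzyme of triglyceride synthesis, by 3.034 (adjusted p = 0.00867). These 4 had low NA levels in liver beside bulk liver, with Abcd2 at means of 8.05 CPM in NA cells and 200 in bulk and Dgat2 at 63.3 and 1010, while in marrow Abcd2 stood at 44.3 and 35.9 and Dgat2 at 57.8 and 31.8. Clec4n, a C-type lectin receptor of myeloid cells, differed by 3.005 (adjusted p = 0.00074), with 10.7 to 14.2 CPM in NA marrow and 1.53 to 3.35 in bulk marrow.

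Of the genes lower by it, Hspa1b differed by -4.156 (adjusted p = 0.00112), Tnf by -3.985 (adjusted p = 1.68e-05), Hspa1a by -3.952 (adjusted p = 0.00515), Il1rn by -3.677 (adjusted p = 7.28e-05) and Il1a by -3.514 (adjusted p = 0.00138). The call of Aldh1a7 ended without any of the 3 bulk marrow libraries, or without the NA marrow library of mouse 2 or 3, and that of Hspa1a ended without the bulk marrow library of mouse 3. In these 5 downward genes the mean NA level exceeded the mean bulk level in spleen, liver and tumor.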

How the results depend on the processing

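Mouse was in the model as a block because the labels give the animals. With no replicate block, 9291 genes differed between marrow and the other organs, against 9213 with it, and 1025 and 1112 were marrow-distinct upward and downward. No total moved by over 1.5 times without the block.

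Treating the 9 other libraries as 1 group, which adds the differences among organs to the residual spread, left 419 genes called, turned Lcn2 to -0.4685 and ended the call of 62 named genes. Without mouse 1, an alternative added after the data were seen, the genes differing from spleen fell from 5454 to 2896, those of the interaction from 2745 to 1233 and the marrow-distinct genes from 1130 to 547 upward and from 1096 to 665 downward; fewer libraries entered these fits. Leaving out 1 library at a time, the genes differing from spleen ranged from 3522 to 5392, those of the interaction from 1216 to 3261 and the upward marrow-distinct genes from 681 to 1321; the lowest values came without the spleen library of mouse 3, the NA marrow library of mouse 3 and the marrow library of mouse 1, and the cause was not tested. DESeq2 called 9500 genes in the main comparison and 1374 and 1154 marrow-distinct genes, RLE scaling 9207 and no filter 9036.

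The p-values rest on 3 mice and measure the scatter left after the terms for organ and mouse, pooled over the libraries of each fit. A level under 0.156 to 0.288 CPM is within the 3-count limit of its library.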

Other observations

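Plasma cell genes were expressed in marrow and in spleen. Of 14 tested, 10 were higher than the mean of the other organs (28.1% of all genes), none was higher and 4 were lower than in spleen (2 without mouse 1), and the median log2 fold change was 2.85 (all genes, -0.05). Igkc, the constant region of the kappa light chain, stood at 1215, 1591 and 1806 CPM in marrow and at 2065, 987 and 1533 in spleen, which overlapped. Of 17 stem and progenitor genes 9 were higher (28.1% of all genes) and 6 lower (29.8% of all genes), with a median of 0.70. Against spleen 7 were higher and 2 lower (15.1% and 19.2% of all genes). The counts were 4 and 7 against liver (29.8% and 31.5% of all genes) and 12 and 4 against tumor (31.6% and 32.3% of all genes). Hoxa9, a homeobox factor of early progenitors, stood at 3.28, 2.55 and 2.01 CPM in marrow and at no more than 0.395 elsewhere, while Procr, a receptor of stem cells and of endothelium, stood at 1.02 to 1.79 CPM in marrow and at 4.49 to 69.0 elsewhere. Both were marrow-distinct, in opposite directions.

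Nkg7, a granule membrane protein of cytotoxic lymphocytes, was the marrow-distinct member of the natural killer and cytotoxic list and is also counted in the primary granule list. It stood at 36.4, 40.0 and 40.1 CPM in marrow against 6.40 to 10.1 in spleen, 11.4 to 24.5 in liver and 0.108 to 0.275 in tumor. Of the 10 tested genes of the natural killer and cytotoxic list 7 were lower than in spleen (19.2% of all genes), and 3 without mouse 1. Against the mean of the other organs 2 were higher and 2 lower. Of all genes tested 28.1% were higher and 29.8% lower than the mean of the other organs. Of 14 dendritic cell genes 5 were higher and 7 lower (median -0.68); without the tumor libraries 0 were higher, and without those of liver or spleen 3 or 4 were lower. Of 20 interferon response genes 1 was higher and 9 lower (median -0.81), with 5 lower without the liver libraries and 14 without those of tumor. Against spleen 2 were higher and 1 lower (median 0.05), and against liver 14 were lower. As a share of library counts without TMM scaling, however, the summed list was higher in marrow (0.0549% to 0.0586%) than in liver (0.02655% to 0.0484%). Ifit1, an interferon-induced gene, stood at 0.776 to 1.37 CPM in marrow, at 0.892 to 2.71 in spleen and at 4.95 to 38.5 in liver and tumor. Heme breakdown genes had 3 of 10 higher and 3 lower (median -0.32), all 12 heme synthesis genes were higher (median 2.695) but 1 of 12 was higher than in spleen (median 0.82; 6 genes without the spleen library of mouse 2 and 4 by DESeq2), and ribosome synthesis genes had 4 of 16 higher and 1 lower (median 0.16), or 7 higher by DESeq2. Of 10 lung epithelium genes 1 was higher and 3 lower, or 1 to 7 lower leaving out 1 library, with 7 without the liver library of mouse 1. All 13 genes of the mitochondrial genome were lower than the mean of the other organs (median -2.67), with a median of -6.42 against liver, and none differed from spleen past the threshold (median -0.55).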
